A study of Mus musculus with 35 samples.

Results

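Hopx, Plscr1, Prss16, Wipi1, Sult1a1 and Tns1 are 6 genes measured in bone marrow-derived macrophages (BMDMs). Their transcripts were much higher in cells given LPS + Dex than in cells given LPS alone. Out of 47069 gene identifiers measured, they were chosen by one measured value, a large rise of LPS + Dex over LPS. They are protein-coding genes without a shared family, and the working description of them was that they need both treatments together. Hopx and Plscr1 rose with neither treatment alone. Prss16 and Wipi1 were also highest with LPS + Dex, but Dex alone raised both over vehicle (4.88 and 1.97 times in WT, 3.98 and 1.75 times in the libraries labelled AMPKa1-/-), so they also rose without LPS. The values go further against the description for Sult1a1 and Tns1, which were highest with Dex and no LPS, almost lost with LPS, and in between with the combination.

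BMDMs of C57BL/6 mice, grown from bone marrow in L929-conditioned medium, received 1 of 6 treatments for 24 h. Vehicle was DMSO, Dex was given at 100 nM, LPS at 100 ng/ml and DAMPs at 1 µg/ml, and the combinations LPS + Dex and DAMPs + Dex used the same doses. Dex is dexamethasone, a synthetic glucocorticoid (GC). LPS is lipopolysaccharide of the bacterial cell wall, and DAMPs are damage-associated molecular patterns, molecules of injured cells, whose make-up the labels do not give. Wild-type (WT) mice gave 17 libraries and mice labelled AMPKa1-/- gave 18, that is 3 replicates per treatment and genotype except WT LPS. For WT LPS the 35 samples hold replicates 2 and 3 and no replicate 1. All groups share the strain and the medium. The labels name neither the AMPKa1 allele nor a Cre driver, and do not tie libraries to animals, so p-values measure the spread between these libraries. RNA abundance is given in FPKM, that is, fragments divided by gene length and by the size of the library. The libraries held 15837203 to 31955298 fragments, as read from the steps of low values, so that 1 fragment adds 0.0313 to 0.0631 FPKM to a gene 1 kb long.

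GCs bind the glucocorticoid receptor (GR), which enters the nucleus and acts on chromatin as a transcription factor. LPS is sensed by Toll-like receptor 4 and switches on NF-kB, AP-1 and interferon-dependent transcription in macrophages. GR is best known for damping that programme, but it also raises genes of its own, and some GC-induced genes are known to respond more strongly in cells that are under inflammatory stimulation. The genes described here serve different ends: Hopx encodes an atypical homeodomain protein that works through partner proteins instead of binding DNA, Plscr1 a phospholipid scramblase of the plasma membrane that interferon is known to induce, Prss16 a serine protease of the S28 family first known from the thymus, Wipi1 a phosphoinositide-binding protein of the forming autophagosome, Sult1a1 a cytosolic sulfotransferase that conjugates phenols, and Tns1 the focal adhesion adaptor tensin 1.

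On GRCm38 (GENCODE release M21), Hopx (ENSMUSG00000059325) lies on chromosome 5 from 77086988 to 77115121, Plscr1 (ENSMUSG00000032369) on chromosome 9 from 92249750 to 92272278, Prss16 (ENSMUSG00000006179) on chromosome 13 from 22002173 to 22009742, Wipi1 (ENSMUSG00000041895) on chromosome 11 from 109573331 to 109611967, Sult1a1 (ENSMUSG00000030711) on chromosome 7 from 126672865 to 126676432 and Tns1 (ENSMUSG00000055322) on chromosome 1 from 73910231 to 74124449. Plscr1 is on the plus strand and the others are on the minus strand. Sult1a1 and the opposite-strand gene Sgf29 share 61 bases, Hopx shares 7772 bases with its antisense gene Hopxos, which stayed at or below 0.0574 FPKM, and Mir6386 lies within Plscr1 on the opposite strand at or below 7.85 FPKM. The strand setting of the counting is not stated, so reads in these overlaps cannot be told apart.

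The RefSeq promoter table (GRCm38.p6) held a start site for 5 of the 6 genes. The 250 bases upstream of the start site are shown for Sult1a1 and Tns1, because their levels moved together across treatments, and for Plscr1 and Wipi1, because both held a STAT motif. Capitals mark the motif matches (AGAACA or its reverse complement TGTTCT in Sult1a1, TTCNNNGAA in Plscr1 and Wipi1), and Tns1 has none. The windows are chr7:126676419-126676668, chr1:74124549-74124798, chr9:92249944-92250193 and chr11:109611390-109611639, each written 5′ to 3′ on the strand of its gene.
Sult1a1: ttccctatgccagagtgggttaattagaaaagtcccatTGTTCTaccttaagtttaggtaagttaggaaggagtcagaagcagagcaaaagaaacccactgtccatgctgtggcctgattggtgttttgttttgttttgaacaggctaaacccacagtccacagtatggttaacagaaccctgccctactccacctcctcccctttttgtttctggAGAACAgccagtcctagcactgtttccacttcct
Tns1: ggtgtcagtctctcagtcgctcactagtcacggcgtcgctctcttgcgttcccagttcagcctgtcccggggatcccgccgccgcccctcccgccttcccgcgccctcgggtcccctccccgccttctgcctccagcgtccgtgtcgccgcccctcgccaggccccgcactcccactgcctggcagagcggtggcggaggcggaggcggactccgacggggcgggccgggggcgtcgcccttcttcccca
Plscr1: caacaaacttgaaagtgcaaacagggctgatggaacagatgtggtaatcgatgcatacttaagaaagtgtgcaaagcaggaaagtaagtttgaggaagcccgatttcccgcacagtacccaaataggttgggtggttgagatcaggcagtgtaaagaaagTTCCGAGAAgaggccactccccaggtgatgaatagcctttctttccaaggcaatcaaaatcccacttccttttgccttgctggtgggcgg
Wipi1: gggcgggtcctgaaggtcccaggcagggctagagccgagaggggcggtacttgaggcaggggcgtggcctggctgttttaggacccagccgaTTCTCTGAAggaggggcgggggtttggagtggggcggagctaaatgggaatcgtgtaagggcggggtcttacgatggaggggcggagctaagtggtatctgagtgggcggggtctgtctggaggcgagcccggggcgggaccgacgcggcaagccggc
The windows searched were 300 bases long and ended 50 bases after the start, and both strands were read. The full palindromic glucocorticoid response element was matched in none of the windows of these genes and in 0.475% of the 32851 promoters of the table. Sult1a1 held its short form AGAACA, which can also lie inside the full element, beginning 212 and 34 bases before the start, and 19.0% of all promoters held at least 1. The STAT (GAS) motif TTCNNNGAA began 90 bases before the start of Plscr1 and 158 bases before that of Wipi1, with 8.30% of all promoters holding it. AP-1 (TGANTCA), C/EBP (TTGCNNAA), kappaB and interferon-stimulated response element motifs were matched in none of the windows, against 7.81%, 10.8%, 4.51% and 3.44% of all promoters. Both Hopx start sites were without a match. A match describes letters, and no match concerns these windows alone.

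The gene named in the genotype was looked at before the others. Prkaa1, which encodes AMPKa1, was at 15.9, 11.8 and 15.3 FPKM in the WT vehicle libraries and at 14.8, 16.5 and 15.4 FPKM in those labelled AMPKa1-/-, that is 14.3 ± 2.19 and 15.6 ± 0.861 FPKM (SD, n = 3 each). Its mean was also higher in the libraries labelled AMPKa1-/- with DAMPs and with DAMPs + Dex (14.3 against 13.8 and 21.9 against 17.7 FPKM), and lower with Dex (18.6 against 22.8), LPS (10.2 against 12.9) and LPS + Dex (11.7 against 14.3). The genotypes overlapped under every treatment, so the transcript was not lost in the libraries labelled AMPKa1-/-, and its level cannot check a deletion that leaves the read count as it was. The genotype is written as a label throughout. Prkaa2, which encodes the other catalytic subunit, stayed at or below 0.13 FPKM in every library. The cells carried the transcripts of macrophages in all 35 libraries, with Lyz2 at 10343 to 35906 FPKM, Adgre1 at 474 to 2751, Csf1r at 197 to 684 and Cd68 at 163 to 1741. The other macrophage markers listed were Cd14 at 135 to 2840 FPKM, Mertk at 17 to 221, Itgam at 9.12 to 102 and Fcgr1 at 4.39 to 347. Of the 8 markers, 3 were higher and 2 lower with LPS + Dex than with LPS in the libraries labelled AMPKa1-/-. Against Dex, 4 were higher and 3 lower.

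The rule of choice, a large rise with LPS + Dex over LPS, names no genotype. It was taken to rest on WT, so the WT values of LPS, Dex and their combination are given as a description, with no test. This is an assumption. If the libraries labelled AMPKa1-/- also bore on the choice, their p-values for LPS and LPS + Dex only describe the genes. They are then no independent test. Among 11354 genes with a mean of at least 1 FPKM, ranked by the WT difference of log2(FPKM + 1), Sult1a1 stood 2nd (6.88), Tns1 3rd (6.56), Prss16 5th (5.69), Wipi1 50th (2.88), Plscr1 104th (2.18) and Hopx 124th (2.04), so that the pick was not the top of the list: Hp stood 1st (7.22) and Tsc22d3 4th (5.91). All 6 genes passed the minimum of 1 FPKM. Hopx passed it through the combined treatment, since its mean was 1.46 FPKM over all libraries and 0.735 FPKM without the LPS + Dex libraries, so its tests of LPS + Dex rest on a filter that those libraries decided. The libraries labelled AMPKa1-/- and the vehicle, Dex and DAMPs arms offer the tests, which used limma across all 11354 genes with Benjamini-Hochberg adjustment.

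**Figure D1:**
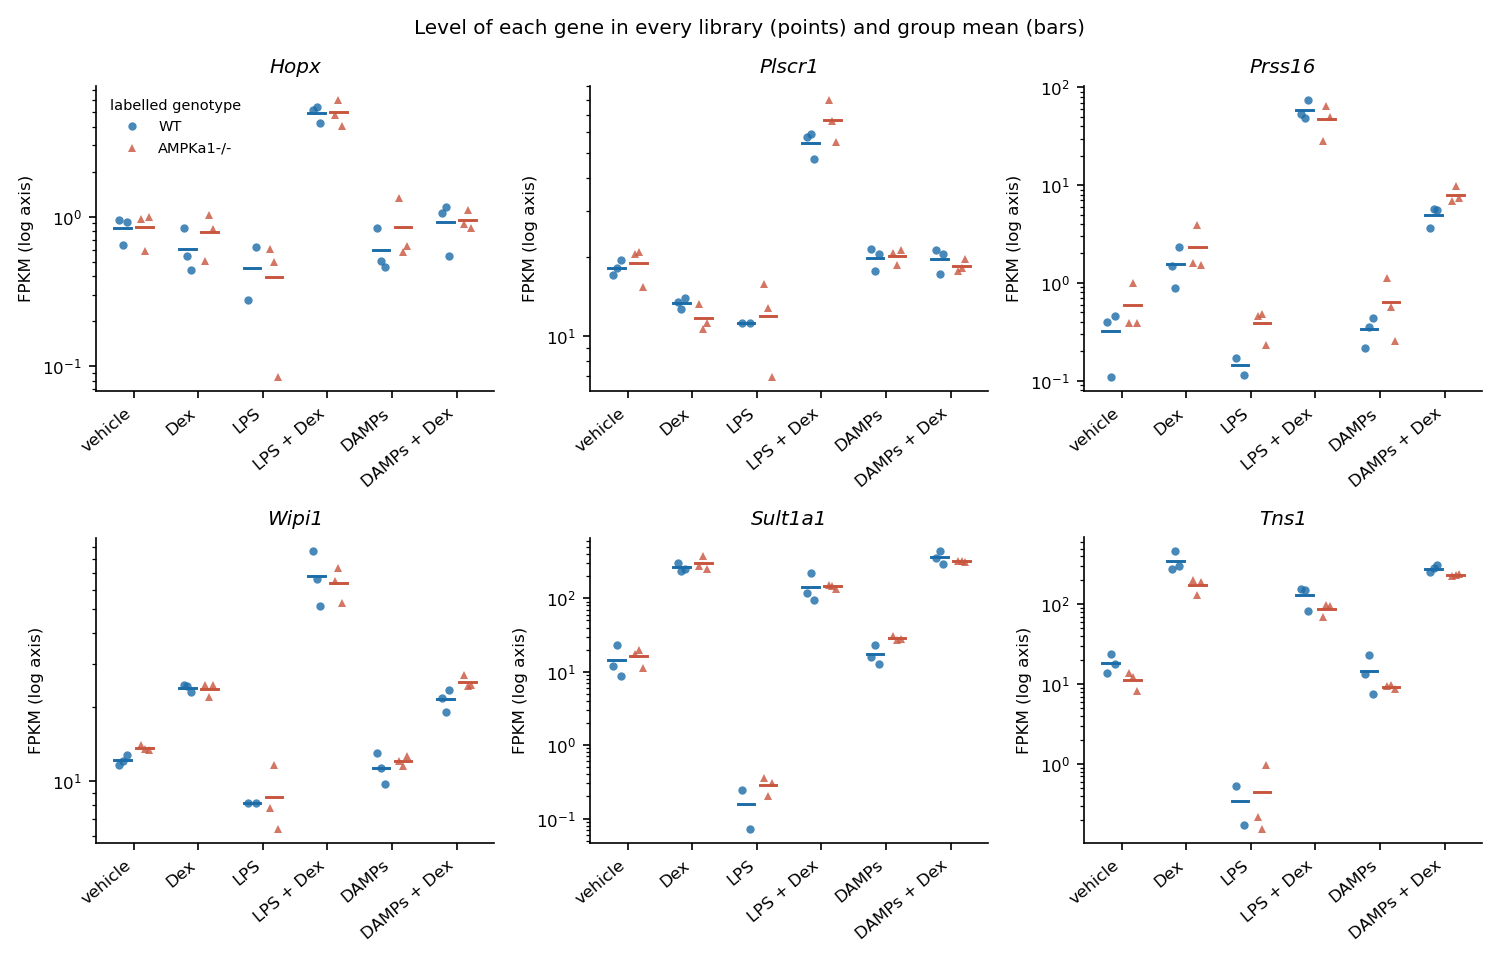
FPKM (log axis) of the 6 genes in every library, by treatment, with WT as circles, libraries labelled AMPKa1-/- as triangles and group means as bars. Hopx, Plscr1, Prss16 and Wipi1 were highest with LPS + Dex in both genotypes, whereas Sult1a1 and Tns1 were lowest with LPS and higher with Dex or DAMPs + Dex than with LPS + Dex.

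Hopx was a nearly silent gene that appeared with the combined treatment. In WT libraries it was at 0.954, 0.646 and 0.92 FPKM with vehicle, 0.838, 0.541 and 0.442 with Dex, 0.275 and 0.631 with LPS, and 5.19, 5.45 and 4.23 with LPS + Dex. Those labelled AMPKa1-/- gave 0.962, 0.593 and 0.991 FPKM with vehicle, 0.506, 1.02 and 0.826 with Dex, 0.608, 0.494 and 0.084 with LPS, and 4.82, 6.04 and 4.07 with LPS + Dex. The LPS + Dex libraries stood above all others in both genotypes, and the other treatments overlapped with their neighbours in the order of levels. Means with LPS + Dex were 4.95 ± 0.642 and 4.98 ± 0.995 FPKM (SD, n = 3 each), 10.9 and 12.6 times LPS and 8.16 and 6.34 times Dex in WT and in the libraries labelled AMPKa1-/-. In the latter, Hopx rose by 2.11 over LPS (log2 of FPKM + 1, SE 0.18, adjusted p = 2.3e-10) and by 1.74 over Dex (adjusted p = 4.5e-09). With no filter on low values, the adjusted p was 1.5e-09 and 2.5e-08. Without WT LPS replicate 3 the WT ratio to LPS was 18 in place of 10.9. The low side rests on few reads, with 2 to 16 fragments in the LPS libraries labelled AMPKa1-/- against 90 to 143 with LPS + Dex.

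Plscr1 was highest with the pair of agents and had a lower mean with each alone than with vehicle. WT libraries held 17.1, 18.1 and 19.4 FPKM with vehicle, 13.4, 12.6 and 13.9 with Dex, 11.2 and 11.2 with LPS, and 57.4, 59.2 and 47.5 with LPS + Dex. Those labelled AMPKa1-/- held 20.6, 20.9 and 15.3 FPKM with vehicle, 13.2, 10.6 and 11.2 with Dex, 15.8, 12.8 and 6.92 with LPS, and 79.8, 66.2 and 55.2 with LPS + Dex. No LPS + Dex library overlapped with another treatment. In the libraries labelled AMPKa1-/-, Plscr1 fell by 0.65 on the log2 scale with Dex (adjusted p = 0.0064) and by 0.69 with LPS (adjusted p = 0.0013), yet rose with LPS + Dex by 2.46 over LPS (SE 0.18, adjusted p = 5.3e-12) and by 2.42 over Dex (adjusted p = 3.7e-12). The LPS and vehicle libraries labelled AMPKa1-/- overlapped (at most 15.8 and at least 15.3 FPKM). The call for LPS was lost with the compared groups alone in the fit (adjusted p = 0.057), and without LPS replicate 3 the difference was -0.37 (adjusted p = 0.028). The WT difference between Dex and vehicle was -0.43 (adjusted p = 0.066), which did not pass the test. With the replicate number as a block it did (adjusted p = 0.041).

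Prss16 went from a trace to a well-expressed transcript. In WT it was at 0.397, 0.108 and 0.456 FPKM with vehicle, 1.49, 0.885 and 2.32 with Dex, 0.172 and 0.115 with LPS, and 53.3, 49 and 74.6 with LPS + Dex. Its values in the libraries labelled AMPKa1-/- were 0.389, 0.995 and 0.389 FPKM with vehicle, 1.61, 3.91 and 1.54 with Dex, 0.456, 0.485 and 0.229 with LPS, and 28.3, 63.9 and 50.1 with LPS + Dex. Dex alone raised its mean 4.88 times in WT and 3.98 times in the latter set (6.06 without vehicle replicate 2), LPS alone overlapped with vehicle in both, and the combination lay far above both. Means of 59 ± 13.7 and 47.4 ± 18 FPKM (SD, n = 3 each) with LPS + Dex were 37.8 and 20.1 times those with Dex. The rise in the libraries labelled AMPKa1-/- was 5.05 over LPS (SE 0.27, adjusted p = 9.7e-15) and 3.85 over Dex (adjusted p = 1.6e-12). On the log2(FPKM + 1) scale, which compresses changes of so low a gene, Dex against vehicle gave 1.03 there (adjusted p = 0.0048) and 0.93 in WT (adjusted p = 0.0099), calls that were lost without Dex replicate 2 labelled AMPKa1-/- (adjusted p = 0.063), and without WT vehicle replicate 2 (0.057) or WT Dex replicate 3 (0.065). LPS against vehicle gave -0.18 (adjusted p = 0.58). The WT LPS libraries held 4 and 3 fragments of Prss16, so the size of the WT fold over LPS, 412 times, is loosely set.

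Wipi1 was expressed under every treatment. WT libraries held 11.6, 12.1 and 12.8 FPKM with vehicle, 24.6, 24.3 and 23.1 with Dex, 8.14 and 8.19 with LPS, and 86, 66.2 and 51.8 with LPS + Dex. Those labelled AMPKa1-/- held 14, 13.5 and 13.4 FPKM with vehicle, 24.7, 22.1 and 24.7 with Dex, 7.76, 11.7 and 6.41 with LPS, and 65.3, 73.5 and 53.1 with LPS + Dex. The order LPS, vehicle, Dex, LPS + Dex held in both genotypes with no overlap between these 4 groups. In the libraries labelled AMPKa1-/-, Wipi1 rose by 2.78 over LPS (SE 0.16, adjusted p = 2.6e-14) and by 1.38 over Dex (adjusted p = 1.8e-08), with Dex itself 0.76 above vehicle (adjusted p = 4.3e-04) and LPS 0.64 below it (log2 difference -0.64, adjusted p = 7.4e-04).

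Sult1a1 and Tns1 differed from the others in where the peak lay. Sult1a1 in WT was at 12.1, 23.1 and 8.7 FPKM with vehicle, 305, 237 and 251 with Dex, 0.243 and 0.0722 with LPS, and 120, 220 and 93.5 with LPS + Dex. Libraries labelled AMPKa1-/- held 17.4, 19.9 and 11.4 FPKM with vehicle, 277, 380 and 252 with Dex, 0.352, 0.203 and 0.303 with LPS, and 154, 148 and 136 with LPS + Dex. Every LPS + Dex library lay below every Dex library and above every vehicle library. Dex alone raised Sult1a1 18.1 times in WT and 18.7 times in the libraries labelled AMPKa1-/- (log2 differences 4.18, adjusted p = 2.3e-12, and 4.15, adjusted p = 2.6e-12), and LPS brought it down to 2 to 9 fragments a library. In the latter libraries LPS against vehicle was -3.71 (adjusted p = 2.1e-12), LPS + Dex against LPS was 6.84 (SE 0.27, adjusted p = 1.5e-17), and LPS + Dex against Dex was -1.03 (SE 0.27, adjusted p = 0.0019).

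Tns1 followed the same course. WT values were 14, 23.7 and 17.9 FPKM with vehicle, 278, 462 and 307 with Dex, 0.525 and 0.172 with LPS, and 158, 151 and 81.9 with LPS + Dex. The libraries labelled AMPKa1-/- held 13.7, 12.3 and 8.25 FPKM with vehicle, 205, 132 and 191 with Dex, 0.22, 0.154 and 0.973 with LPS, and 69.4, 97.1 and 95.8 with LPS + Dex. Here too the LPS + Dex libraries lay between vehicle and Dex with no overlap. In the libraries labelled AMPKa1-/-, Dex raised Tns1 by 3.84 over vehicle (adjusted p = 7.8e-11), LPS lowered it (-3.11, adjusted p = 4.1e-10), LPS + Dex stood 5.96 above LPS (SE 0.29, adjusted p = 1.8e-15) and differed from Dex by -0.99 (SE 0.29, adjusted p = 0.0051). The fold over LPS of these genes, 511 times for Sult1a1 and 195 times for Tns1 by group means, thus has a denominator 56.7 and 25.4 times below vehicle. For Tns1 both rest on LPS replicate 3 labelled AMPKa1-/-, at 0.973 FPKM, without which they were 467 and 60.9 times. Against vehicle, the combination was 9 times higher for Sult1a1 and 7.67 times higher for Tns1.

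Read against all genes tested, a rise over LPS was common and a rise over both single treatments was not. In the libraries labelled AMPKa1-/-, LPS + Dex was higher than LPS for 2187 of 11354 genes (19.3%). Among them were all 6 described here, which were chosen for such a rise, so nothing is read from that count. It was higher than Dex for 2137 genes (18.8%) and lower for 4440 (39.1%), with a median difference of -0.23 over all genes. Hopx, Plscr1, Prss16 and Wipi1 were among the higher, Sult1a1 and Tns1 among the lower, and with the libraries centred on one median the last 2 stayed below Dex (-0.83 and -0.79, adjusted p = 0.016 each). These comparisons share the LPS + Dex libraries. Higher than each treatment alone, by both tests, were 612 genes (5.39%), and Plscr1, Prss16 and Wipi1 were among them, as was Hopx, which the LPS + Dex libraries had carried past the filter. Being above both holds the rise over LPS for which the genes were chosen, so nothing is read from how many of them were. Dex alone, against vehicle, was higher for 11.9% of genes in the libraries labelled AMPKa1-/- and for 15.9% in WT, and Prss16, Wipi1, Sult1a1 and Tns1 were called higher in both. It was lower for 16.0% in the former, with Plscr1 among them. LPS against vehicle was lower for 44.1% of genes in the libraries labelled AMPKa1-/- and 5 of the 6 genes were called lower, all but Prss16. The median of all genes was -0.30 there, and for Hopx the call (-0.42, adjusted p = 0.046) was lost with libraries centred on one median (-0.14, adjusted p = 0.55). With the compared groups alone in the fit, 3 of the 6 were called, since Hopx and Plscr1 were lost (adjusted p = 0.084 and 0.057). A low level with LPS favours the rise over LPS for which the genes were chosen. Nothing is therefore read from how many of them were lower with LPS.

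**Figure D2:**
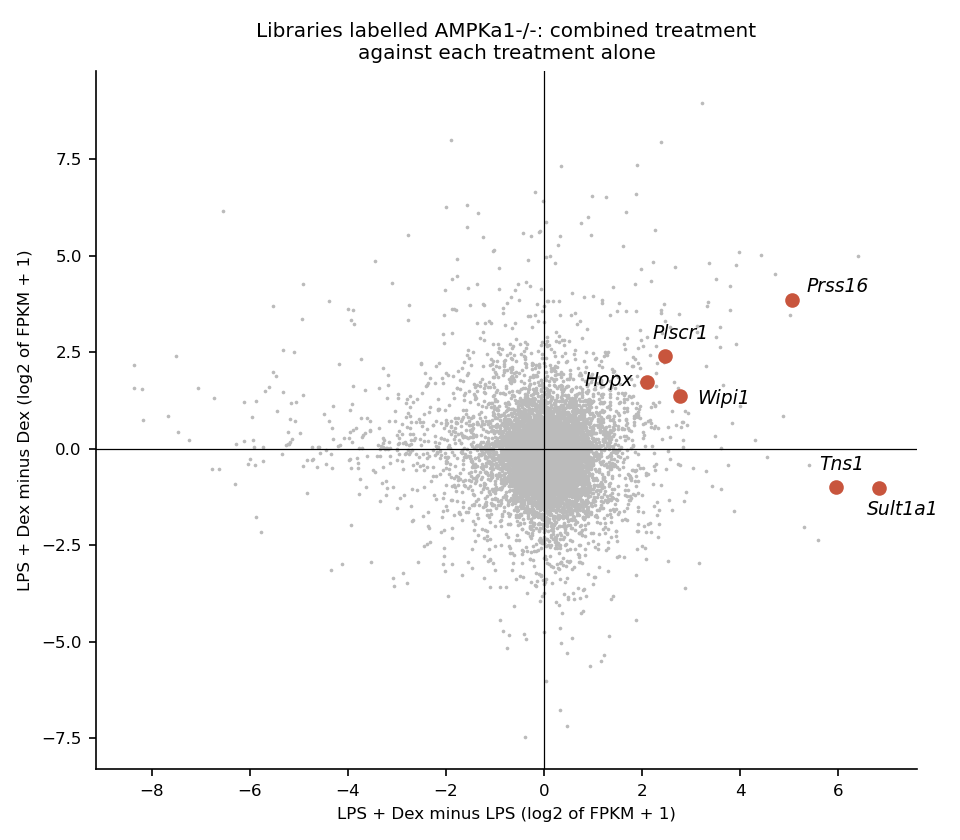
Difference of LPS + Dex from LPS (horizontal axis) and from Dex (vertical axis), both in log2(FPKM + 1), for 11354 genes (grey points) and the 6 genes (red) in the libraries labelled AMPKa1-/-. Prss16, Plscr1, Hopx and Wipi1 lie above 0 on both axes, whereas Tns1 and Sult1a1 lie far to the right at -0.99 and -1.03 on the vertical axis.

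Whether the pair did more than its parts depended, for Sult1a1 and Tns1, on the scale. On the log2 scale, where independent effects multiply, all 6 genes were more than additive in the libraries labelled AMPKa1-/-, where 15.5% of all genes were. This contrast holds the rise over LPS for which the genes were chosen, so nothing is read from the count, and Hopx was tested only through its LPS + Dex libraries (adjusted p = 9.8e-07 with no filter). The excess was 4.02 for Prss16 (SE 0.38, adjusted p = 4.5e-09), 3.10 for Plscr1 (SE 0.25, adjusted p = 2.2e-10), 2.68 for Sult1a1 (SE 0.38, adjusted p = 3.5e-06), 2.16 for Hopx (SE 0.26, adjusted p = 2.5e-07), 2.12 for Tns1 (SE 0.42, adjusted p = 2.5e-04) and 2.02 for Wipi1 (SE 0.22, adjusted p = 5.3e-08). In WT the corresponding differences, untested, were 4.76, 2.61, 2.70, 2.24, 2.40 and 1.96.

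In FPKM, where changes add, the picture split. If the separate folds of LPS and Dex multiplied, Prss16 would reach 1.55 FPKM in the libraries labelled AMPKa1-/-, and if the separate changes added, 2.15 FPKM, against 47.4 measured. For Hopx the predictions were 0.366 and 0.332 FPKM against 4.98, for Plscr1 7.31 and 4.6 against 67.1, and for Wipi1 15.1 and 18.8 against 63.9. These 4 genes exceeded both predictions. Sult1a1 exceeded the multiplied prediction (5.34 FPKM) at 146 FPKM but stayed below the added one (287), and Tns1 at 87.4 FPKM lay above 6.93 and below 165. WT had the same split, with Sult1a1 at 144 FPKM between 2.85 and 250 and Tns1 at 130 between 6.56 and 331. The multiplied predictions scale with the LPS level over vehicle, which single libraries moved. Vehicle over LPS for Tns1 was 25.4 times in the libraries labelled AMPKa1-/- and 60.9 without LPS replicate 3, and in WT 53.2 times, or 108 without LPS replicate 2 and 35.3 without replicate 3. For Sult1a1 in WT it was 92.9 times, or 203 and 60.3. For Prss16 in the libraries labelled AMPKa1-/- it was 1.51 times, or 0.997 without vehicle replicate 2. For Hopx in WT it was 1.85 times, or 3.05 without LPS replicate 3. Of the 1763 genes more than additive on the log2 scale in the libraries labelled AMPKa1-/-, 430 (24.4%) were higher than with each treatment alone, 1104 (62.6%) were not called above Dex, and 534 (30.3%) were called below it.

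**Figure D3:**
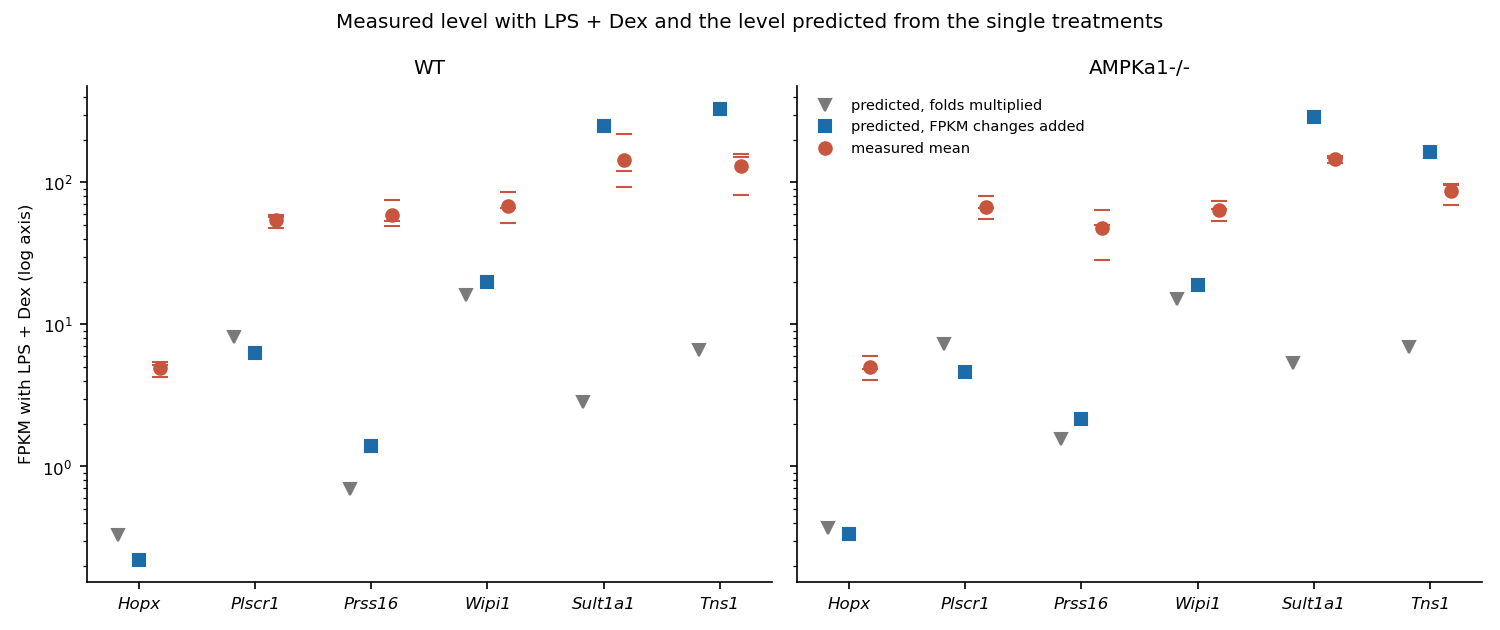
FPKM with LPS + Dex (log axis) of the 6 genes in WT and in libraries labelled AMPKa1-/-, with the measured mean (circles, and a dash per library), the level predicted if the folds of LPS and Dex multiplied (grey triangles) and if their FPKM changes added (blue squares). The measured means of Hopx, Plscr1, Prss16 and Wipi1 lie above both predictions, and those of Sult1a1 and Tns1 between them.

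The DAMPs arms ask whether another stimulus raises these genes together with Dex, and 1 of the 6, Prss16, was higher with DAMPs + Dex than with each alone in both genotypes, as were 0.132% of all genes in the libraries labelled AMPKa1-/- and 0.176% in WT. DAMPs alone changed none of the 6 genes against vehicle at an adjusted p under 0.05, with 4.13% of all genes called in either direction in the libraries labelled AMPKa1-/- and 2.01% in WT. Sult1a1 in the libraries labelled AMPKa1-/- came nearest, with all 3 DAMPs libraries above vehicle at 1.76 times its mean (0.81, adjusted p = 0.097), and it was called with the replicate number as a block (adjusted p = 0.014). With DAMPs + Dex, Hopx was at 1.05, 1.16 and 0.549 FPKM in WT and at 0.895, 1.11 and 0.836 in the libraries labelled AMPKa1-/-. The first pair of WT values lay above every WT library outside LPS + Dex (at most 0.954 FPKM), and the others lay within the range of vehicle, Dex, LPS and DAMPs of their genotype. Plscr1 was at 21.3, 17.2 and 20.6 FPKM and at 17.7, 18.2 and 19.7, and Wipi1 at 21.9, 19.1 and 23.6 and at 27, 24.3 and 24.6. Wipi1 thus came close to its level with Dex alone, and Plscr1 to its level with vehicle. Sult1a1 reached 359, 436 and 298 FPKM in WT and 325, 321 and 312 in the libraries labelled AMPKa1-/-, and Tns1 252, 285 and 308 and 225, 236 and 240. DAMPs + Dex against DAMPs was higher for 13.1% of genes in the libraries labelled AMPKa1-/- and 11.7% in WT, and Prss16, Wipi1, Sult1a1 and Tns1 were called higher in both. The difference for Hopx was 0.09 (adjusted p = 0.77) and 0.25 (adjusted p = 0.35), and for Plscr1 -0.12 (adjusted p = 0.68) and -0.01 (adjusted p = 0.97).

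DAMPs + Dex brought Prss16 to 3.63, 5.69 and 5.51 FPKM in WT and 6.88, 9.73 and 7.35 in the libraries labelled AMPKa1-/-, above every library with Dex, DAMPs or vehicle of the same genotype and below every one with LPS + Dex. DAMPs + Dex exceeded Dex by 1.48 in the libraries labelled AMPKa1-/- (SE 0.27, adjusted p = 0.0066), where 0.203% of all genes were called higher, and by 1.23 in WT (SE 0.27, adjusted p = 0.029), where 0.352% were. Neither call was kept with a pseudocount of 0.1 (adjusted p = 0.15 and 0.096 in WT) or with the compared groups alone in the fit (0.24 and 0.15 in WT), the WT call was lost with no filter (0.051), and each was lost when 1 of several libraries was left out (adjusted p 0.059 to 0.073 without Dex replicate 1, Dex replicate 3 or DAMPs + Dex replicate 2 labelled AMPKa1-/-, and 0.086, 0.28 and 0.18 without WT Dex replicate 1, Dex replicate 2 or DAMPs + Dex replicate 2). Its excess over additivity of DAMPs and Dex, 1.44 (SE 0.38, adjusted p = 0.098, 0.308% of all genes called) and 1.21 in WT (adjusted p = 0.31, 0.00881% called), did not pass the test. With the replicate number as a block, the former did (adjusted p = 0.031).

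The effect of Dex was larger on LPS than on DAMPs for all 6 genes in the libraries labelled AMPKa1-/-, where 11.8% of all genes differed in that direction. This contrast too holds the rise over LPS, so nothing is read from the count, and Hopx again had passed the filter through LPS + Dex (with no filter it kept the call). The difference of the effects was 3.40 for Sult1a1 (adjusted p = 1.1e-07), 2.58 for Prss16 (adjusted p = 8.0e-06), 2.57 for Plscr1 (adjusted p = 7.4e-09), 2.02 for Hopx (adjusted p = 9.1e-07), 1.78 for Wipi1 (adjusted p = 5.6e-07) and 1.45 for Tns1 (adjusted p = 0.01), whose call was lost with quantile normalization (1.16, adjusted p = 0.053). Sult1a1 and Tns1 started from a lower level under LPS than under DAMPs, and their DAMPs + Dex level was above their LPS + Dex level in every library of both genotypes.

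**Figure D4:**
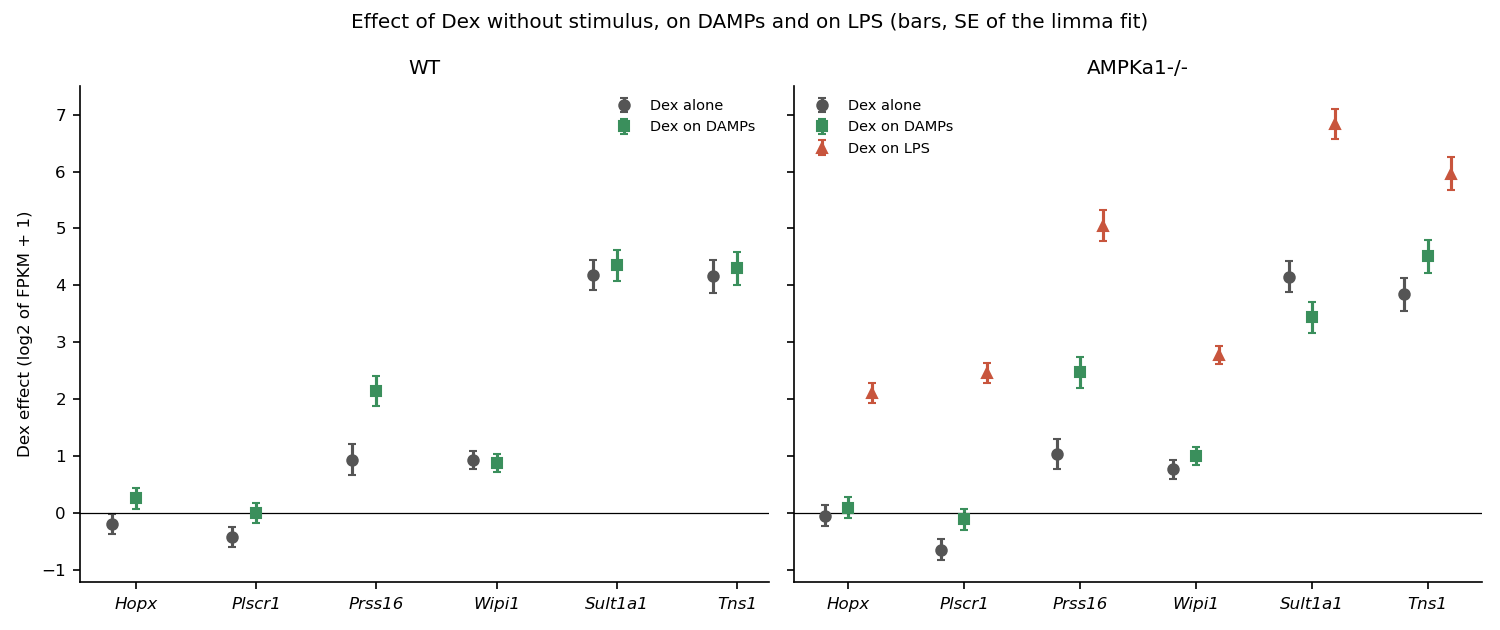
Effect of Dex in log2(FPKM + 1), with SE of the limma fit, on vehicle (grey), on DAMPs (green) and on LPS (red, shown for the libraries labelled AMPKa1-/- alone, since the WT values were taken to have chosen the genes). The effect on LPS is above that on DAMPs for each gene, from 1.45 apart for Tns1 to 3.40 for Sult1a1, and Prss16 is the gene with the widest gap between Dex alone and Dex on DAMPs.

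The genotypes were compared with vehicle, Dex, DAMPs and DAMPs + Dex, and 1 of the 6 genes, Tns1, was called, with Dex. With vehicle, DAMPs and DAMPs + Dex none of the 6 was called between libraries labelled AMPKa1-/- and WT, with 0.432%, 0.731% and 1.06% of all genes called. In some of these comparisons the libraries of the genotypes did not overlap, although the gene was not called. How often this held over all genes was not counted, so nothing is read from it. The libraries labelled AMPKa1-/- were all lower for Tns1 with vehicle (-0.65, adjusted p = 0.73) and with DAMPs + Dex (-0.26, adjusted p = 0.93). They were all higher for Sult1a1 with DAMPs (0.74, adjusted p = 0.35), for Prss16 with DAMPs + Dex (0.60, adjusted p = 0.44) and for Wipi1 with vehicle (0.15, adjusted p = 1) and DAMPs + Dex (0.23, adjusted p = 0.78). With Dex, 26.5% of all genes were called, and Tns1 was at 176 ± 38.8 FPKM in the libraries labelled AMPKa1-/- and 349 ± 99.1 in WT (SD, n = 3 each, log2 difference -0.97, SE 0.29, adjusted p = 0.021). That call was lost without WT Dex replicate 2 or without Dex replicate 2 labelled AMPKa1-/-, when 305 and 308 genes were called in place of 3008, and with a pseudocount of 0.1. With LPS and with LPS + Dex the genotypes were not tested against each other, because the WT libraries were taken to have chosen the genes. With LPS + Dex the ranges overlapped for all 6 genes, and with LPS for all but Prss16, which was at 0.39 FPKM in the libraries labelled AMPKa1-/- and 0.143 in WT by group means, on few fragments.

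Relatives of the genes were read beside them. Papss1 and Papss2, which make the sulfate donor used by sulfotransferases, were lower with LPS + Dex than with LPS in the libraries labelled AMPKa1-/- (-0.33, adjusted p = 0.018, and -0.75, adjusted p = 7.6e-04) and higher than with Dex (0.30, adjusted p = 0.02, and 0.56, adjusted p = 0.0066). The other sulfotransferases of the list stayed at or below 2.19 FPKM (Sult6b1) and were not tested. Among the tensins, Tns3 was lower with LPS + Dex than with LPS (-0.97, adjusted p = 0.0023) and lower with Dex than with vehicle (-1.37, adjusted p = 9.3e-05), where Tns1 rose, and in WT the latter difference was -0.42 (adjusted p = 0.19). Tns4 was lower with LPS + Dex than with LPS (-0.53, adjusted p = 0.034), and lower with Dex than with vehicle in both genotypes (-0.78 each, adjusted p = 0.0034 and 0.0033 in WT). The S28 peptidases Prcp and Dpp7 differed from LPS by -0.10 (adjusted p = 0.7) and -0.25 (adjusted p = 0.18), and both were lower than with Dex (-1.10, adjusted p = 2.1e-06, and -0.93, adjusted p = 3.5e-06). Of the PROPPIN family of Wipi1, which binds phosphoinositides during autophagy, Wdr45 and Wdr45b were higher than with LPS (0.89, adjusted p = 7.6e-07, and 0.32, adjusted p = 0.0053) but lower than with Dex (-1.93, adjusted p = 1.5e-13, and -0.40, adjusted p = 4.3e-04), and Wipi2 was at 0.09 against LPS (adjusted p = 0.49). The scramblase Plscr4 was higher than with LPS (1.72, adjusted p = 8.5e-07) and lower than with Dex (-1.07, adjusted p = 2.9e-04), and Plscr3 was at 0.50 against LPS (adjusted p = 0.05). Of the 11 relatives tested 0 were called higher with LPS + Dex than with each treatment alone, against 5.39% of all genes.

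**Figure D5:**
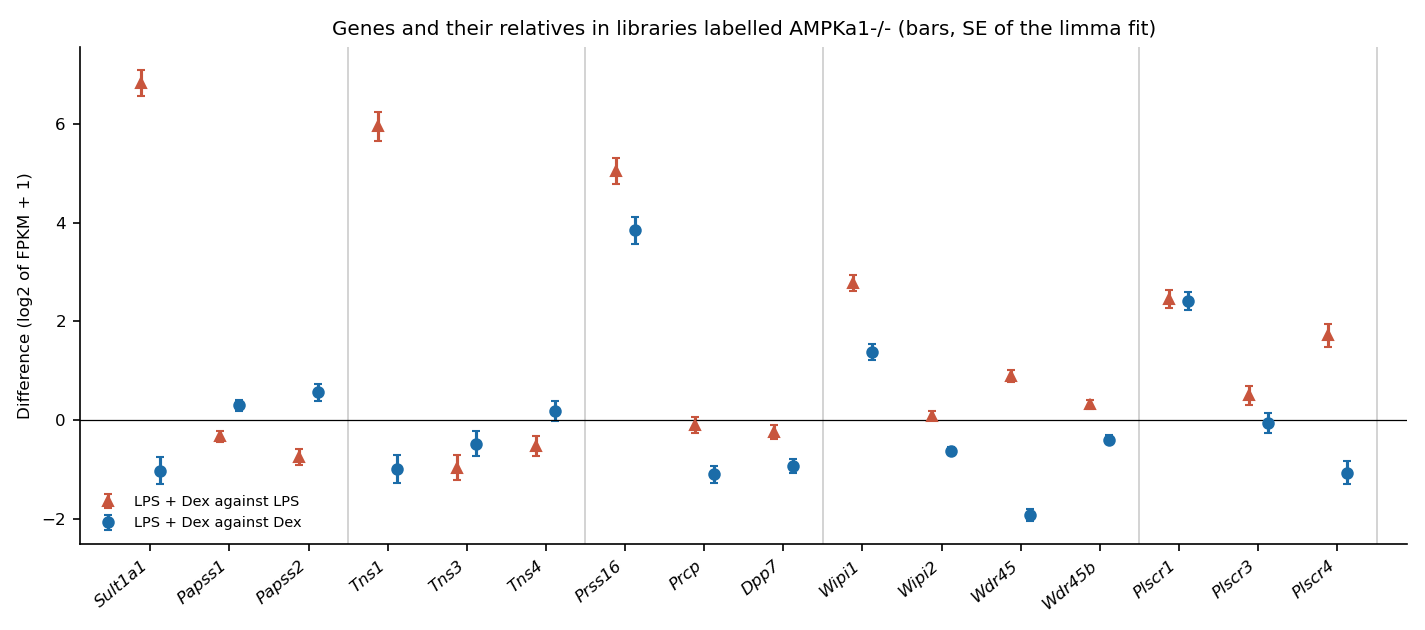
Difference of LPS + Dex from LPS (red triangles) and from Dex (blue circles) in log2(FPKM + 1), with SE of the limma fit, for 5 of the 6 genes and their relatives in the libraries labelled AMPKa1-/-. Prss16, Wipi1 and Plscr1 are above 0 on both measures, and their relatives are at or below 0 against Dex.

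The wider pathways were read from lists that leave out the 6 genes, beside the shares of all genes in the libraries labelled AMPKa1-/-, which were 19.3% higher and 18.4% lower against LPS and 18.8% higher and 39.1% lower against Dex. Of 14 genes of the WIPI and autophagosome list, 5 were higher and 1 was lower with LPS + Dex than with LPS (median 0.20, against 0.01 over all genes), and 1 was higher and 10 were lower than with Dex (median -0.70). Ulk1, a kinase that starts autophagy, was 1.42 above LPS, and Sqstm1, an autophagy receptor, fell by 1.02. Of 11 tensin and focal adhesion genes 1 was higher and 4 were lower than with LPS (median -0.14), with the integrin Itga5 at -2.08 and Itgb3 at 0.72, and 2 were higher and 2 lower than with Dex (median 0.12). Of 7 scramblase and flippase genes 2 were higher and 1, Xkr8, was lower than with LPS (median -0.17), and 1 was higher and 1 lower than with Dex (median 0.08). Of 9 S28 and lysosomal peptidase genes 1, Ctsd (0.95), was higher and 3 were lower than with LPS (median -0.10), and 0 were higher and 8 lower than with Dex (median -1.10), Ctsd among them (-1.05). Of 3 HOPX partners Epc1 was higher (0.75) and Srf lower (-0.34) than with LPS, and none was called against Dex. No difference between these lists and all genes was tested. In these 5 lists 0 genes were called higher than with each treatment alone, against 5.39% of all genes.

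Known responders to LPS and to GCs were read beside them. All 20 interferon-stimulated genes listed were lower with LPS + Dex than with LPS (median -5.57), with Cxcl10 at -8.17 and Ifit3 at -6.78, although all 20 were higher with LPS than with vehicle (median 4.43), as were 20.2% of all genes. Plscr1, known as interferon-induced, had differences of the opposite sign at both steps (2.46 and -0.69). Of 13 inflammatory genes induced by LPS, 12 were lower than with LPS (median -5.53) and 12 were higher than with Dex (median 2.56). Of 11 classical GC-induced genes 10 were higher than with LPS (median 2.23) and 5 were lower than with Dex (median -0.48), among them Tsc22d3, which encodes the anti-inflammatory protein GILZ, at 5.58 and -2.37. Tsc22d3 was also lower with LPS than with vehicle (-3.97) and more than additive (1.60), as Sult1a1 and Tns1 were. Of the 11, 3 were lower with LPS than with vehicle, against 44.1% of all genes. More than additive were 2 of the 11, against 15.5% of all genes, and 2 were less than additive, against 12.8%. Fkbp5 was not lower with LPS (0.62) and was less than additive (-1.05). These counts were not tested against all genes. In the same list 2 genes, Dusp1 and Mt2, were higher than with each treatment alone. Of 5 acute-phase genes, 4 were higher than with each alone: Saa3, Hp, Lcn2 and Orm1. They differ from Hopx, Plscr1, Prss16 and Wipi1 in that LPS alone raised all 4 of them over vehicle (8.61 for Saa3, 4.64 for Hp, 9.06 for Lcn2 and 1.48 for Orm1, adjusted p at most 1.6e-05).

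The neutrophil marker S100a8, an alarmin, was also highest with LPS + Dex. The summed level of 9 neutrophil markers was 511 to 1200 FPKM with LPS + Dex in WT, against 126 to 161 with LPS, and 329 to 620 against 129 to 143 in the libraries labelled AMPKa1-/-. Most of it was S100a8, at 747 ± 353 and 396 ± 160 FPKM (SD, n = 3 each) with LPS + Dex, which was called higher than with LPS (3.92) and than with Dex (4.77) in the libraries labelled AMPKa1-/-. Of the 5 neutrophil markers tested it was the only one called higher than with LPS. Camp, an antimicrobial peptide gene, was highest with LPS and lower with LPS + Dex (102 and 28.3 FPKM in these libraries, -1.84, adjusted p = 1.2e-05). S100a9, Ngp and Ltf were not called against LPS (-0.58, 0.12 and -0.12). Against Dex, Camp was higher with LPS + Dex (28.3 against 1.37 FPKM, 3.62, adjusted p = 4.4e-11), as S100a8 was, and Ngp and Ltf were lower (-1.40 and -1.26). The listed neutrophil markers that did not pass the filter were at or near 0. Ly6g was at 0 in 31 of 35 libraries and at most 0.2 FPKM, and Mpo was at 0 in 22 and at most 0.218. Elane was at 0 in 20 and at most 0.475, and Cxcr2 at 0 in 10 and at most 0.216. S100a9, Ngp and Ltf reached 16.4, 7.56 and 6.2 FPKM. The share of neutrophils was not tested. Summed markers of dendritic cells, lymphocytes, mast cells and erythroid cells stayed at or below 2.11 FPKM in every library. Those of fibroblasts reached 1.16 to 24.7 FPKM, with no peak at LPS + Dex (1.41 to 9.33). The epithelial and endothelial list, mostly Kdr, was at 48.2 to 57.5 FPKM with LPS in WT and 20.8 to 50.2 in the libraries labelled AMPKa1-/-, and at 0.798 to 5.23 with LPS + Dex. The part of these genes in the results was not tested. In bulk RNA, fewer cells of a type and less RNA per cell cannot be told apart. A single acute-phase transcript, Saa3, also took 16.0 to 24.0% of the FPKM sum of the LPS + Dex libraries, 3.74 to 7.58% with LPS and at most 0.224% with vehicle or Dex. The part of this share in the results was not tested. With the libraries centred on one median, Hopx, Plscr1, Prss16 and Wipi1 were called higher than with each treatment alone, as without centring. These calls hold the rise over LPS for which the genes were chosen, and Hopx had passed the filter through LPS + Dex.

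Across the 12 group means of log2(FPKM + 1), which hold the LPS + Dex rises by which the genes were chosen, likeness among the 6 genes was graded. Sult1a1 and Tns1 had a Pearson r of 0.98 with each other. Hopx had 0.96 with Plscr1, 0.93 with Prss16 and 0.89 with Wipi1, Prss16 had 0.95 with Wipi1, and Plscr1 had 0.85 with Prss16 and 0.80 with Wipi1. Sult1a1 and Tns1 had 0.41 and 0.39 with Hopx, 0.38 and 0.34 with Plscr1, 0.60 and 0.59 with Prss16, and 0.74 each with Wipi1, which lay between Plscr1 and this pair. Over all genes tested, the nearest to Hopx were Notch4 (0.982), Slc29a2 (0.972) and Pygl (0.971), and to Plscr1 Hopx (0.955), Map4k2 and Rab27a (0.948 each). Nearest to Prss16 were Tmem63c (0.977), Ifitm2 (0.975) and Ndufv2 (0.972), and to Wipi1 Hacd2 (0.987), Magi1 (0.977) and Lgr4 (0.969). Sult1a1 was most like Tsc22d3 (0.986), Rhob (0.985) and Tns1 (0.983), and Tns1 like 4930481A15Rik (0.985), Tmem131l (0.984) and Sult1a1 (0.983). The points share libraries and treatments, so these values describe likeness of pattern.

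Levels of different genes are not ranked here, because the gene lengths behind the FPKM values differ from those of the annotation. The steps of low values give Tns1 a length of 2687 bases, against 16010 exon bases annotated, and Prss16 1097 against 4183.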

How the data were processed

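RNA of 35 BMDM cultures was sequenced by Novogene. The authors deposited FPKM values per Ensembl gene. Per the labels' processing notes, Bowtie2 2.2.3, TopHat2 2.0.12, HTSeq 0.6.1, DESeq2 and the builds GRCm38 and mm10 were named. The authors' annotation is not given in the sources used here. GENCODE release M21 gave positions and named 46488 of 47069 identifiers. FPKM are not counts. Steps of low values gave relative depth, with 55.4 to 63.8% of genes under 10 fragments whole within 0.001 fragments in a library, so no count test was run. Replicates correlated at 0.987 to 0.997, and no pair of libraries shared a value above 0.

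Genes with a mean of at least 1 FPKM over all libraries (11354) entered a limma fit (version 3.58.1, R 4.3.3) on log2(FPKM + 1), in 12 groups with 23 residual degrees of freedom (empirical Bayes with trend, 2-sided, Benjamini-Hochberg threshold 0.05). Fold changes on this scale understate changes of low genes. The fit was checked on simulated data. WT LPS, with 2 libraries, borrowed the spread of the other groups. Other steps used Python 3.11.15, numpy 2.4.6, pandas 2.3.3 and matplotlib 3.10.9.

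The genes, lists and tests were chosen with earlier results of these data known. The genes had been picked for their rise with LPS + Dex over LPS, a rule that names no genotype and was taken to rest on WT. Beside them, relatives, up to 4 called genes of each list with the largest change against LPS, the 3 genes most like each, and markers are named. Dusp1, and the values of acute-phase genes with LPS alone, were singled out after their values were seen.

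To check whether replicate numbers pair libraries, deviations from group means were correlated between libraries with the same number. Of 25 treatment pairs with 3 numbers, 7 had each correlation over 0.1, among them LPS and LPS + Dex labelled AMPKa1-/- (0.36 to 0.37), and values ranged from -0.49 to 0.76. What a number stands for is not stated in the labels. The fit was repeated with a replicate block, a pseudocount of 0.1, without a filter or with a mean of at least 5 FPKM, after centring on one median or quantile normalization, on the compared groups alone, and without each library in turn. Non-additivity on the FPKM scale was added after seeing the data.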

Additional observations from a re-analysis of the deposited data

Results flagged for a closer look

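A difference between stimuli marked all 6 genes: in the libraries labelled AMPKa1-/-, the effect of Dex on LPS exceeded that on DAMPs, tested as an interaction in the limma fit, as it did for 11.8% of all genes. The contrast holds the rise over LPS for which the genes were chosen, so nothing is read from the count, and Hopx passed the filter on low values only through the LPS + Dex libraries. The log2 difference of the effects was 2.02 for Hopx, 3.40 for Sult1a1, 1.45 for Tns1, 2.58 for Prss16, 1.78 for Wipi1 and 2.57 for Plscr1. For Tns1 the call was lost with quantile normalization (1.16, adjusted p = 0.053). A difference between genotypes marked 1 gene: with Dex, Tns1 differed by -0.97 between libraries labelled AMPKa1-/- and WT, where 26.5% of all genes were called. That call was lost without WT Dex replicate 2, without Dex replicate 2 labelled AMPKa1-/- and with a pseudocount of 0.1. No group had enough libraries to search it for outlying ones.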

How the results depend on the processing

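Over the alternatives planned, 1575 of 1607 tested values of the 6 genes kept their side of the threshold, 26 lost the call and 6 gained it. No value called in either fit reversed its direction. A change of sign in a value called in neither fit was counted as kept. Non-additivity in FPKM reversed for Sult1a1 (-106 in WT, -141 in libraries labelled AMPKa1-/-) and Tns1 (-201 and -77.7), since adding levels and multiplying folds are different models. Hopx, Plscr1, Prss16 and Wipi1 stayed higher than with each treatment alone in the libraries labelled AMPKa1-/- under each alternative run for that count except a minimum mean of 5 FPKM, which Hopx did not pass.

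Genes called out of the 6, labelled AMPKa1-/- unless given otherwise: LPS against vehicle went from 5 to 3 with the compared groups alone (Hopx and Plscr1, adjusted p = 0.084 and 0.057), and Hopx was also lost without a filter (adjusted p = 0.086), with centring or with quantile normalization (adjusted p = 0.99), and without some libraries (log2 difference down to -0.25). DAMPs + Dex against Dex went from 1 to 0 with a pseudocount of 0.1 and with the compared groups alone, and in WT also with no filter. With libraries left out the count was 0 to 1 in both genotypes. DAMPs + Dex above each alone went from 1 to 0 with a pseudocount of 0.1, in WT also with no filter, and was 0 to 1 with libraries left out. The genotype difference with Dex went from 1 to 0 with a pseudocount of 0.1 and was 0 to 1 with libraries left out. Prss16 lost its rise with Dex without Dex replicate 2 labelled AMPKa1-/- (adjusted p = 0.063), WT vehicle replicate 2 (0.057) or WT Dex replicate 3 (0.065).

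The replicate number as a block raised the count for DAMPs against vehicle from 0 to 1 (Sult1a1, 0.81, adjusted p = 0.014) and for DAMPs and Dex non-additivity from 0 to 1 (Prss16), called Plscr1 in WT with Dex, and changed no other call of these genes. Where a loss or gain has no construction named, the cause was not tested.

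Counts over all genes moved by more than 1.5 times as follows. DAMPs against vehicle fell from 469 to 274 with the compared groups alone (268 to 456 with a library left out), and in WT from 228 to 0 (27 to 374). DAMPs + Dex against Dex went from 24 to 12 with a pseudocount of 0.1, 52 without a filter and 4 with the compared groups alone (8 to 19), and in WT from 59 to 141 with quantile normalization, 116 with the block and 11 with the compared groups alone (12 to 232). WT DAMPs + Dex against DAMPs went from 2756 to 1825 with the compared groups alone. Non-additivity of DAMPs and Dex went from 35 to 7 (pseudocount), 18 (no filter), 106 (block) and 113 (compared groups alone), 0 to 49 with a library left out, and in WT from 1 to 11 (no filter), 3 (quantile), 5 (block) and 0 (compared groups alone), 0 to 39. The genotypes differed in 49 genes with vehicle and in 13 to 110 under alternatives, in 3008 with Dex and in 305 to 4523, in 83 with DAMPs and in 7 to 198, and in 120 with DAMPs + Dex and in 32 with the compared groups alone (49 to 97 with a library left out). DAMPs + Dex above each alone went from 15 to 6 (pseudocount), 27 (no filter) and 9 (mean of at least 5 FPKM), 5 to 15 with a library left out, and in WT from 20 to 43 (quantile) and 32 (block), 6 to 68 with a library left out. Low counts with LPS (2 to 18 fragments a library for Hopx, Prss16 and Sult1a1), and for Tns1 the spread between LPS libraries (0.154 to 0.973 FPKM), limit the folds over LPS.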
